A study of Mus musculus with 16 samples.

Results

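The potassium channel genes of the mouse hypothalamus were followed in 16 RNA-seq libraries from WT and ASIC1a-/- mice. They were taken as the protein-coding genes whose symbol starts with Kcn, and 78 of the 94 such genes in the annotation had a CPM (counts scaled to the library's size) above 1 in 1 or more libraries, among 15808 genes that passed the same filter. Of the 78 genes, 74 exceeded 1 CPM in every library, whereas Kcnk12 did so in 7 libraries, Kcnj13 and Kcnk5 in 2 each and Kcnrg in 1. The other 16 Kcn genes remained under the filter and were not tested. The highest CPM in any library was 1.08 for Kcnrg and 1.19 for Kcnk12, just inside the limit, and 0.906 for Kcng3, just outside it.

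Each of the 4 groups held 4 libraries, and every library came from a mouse of its own, a male of 3 months on a C57BL/6 background: WT at ZT1, WT at ZT13, ASIC1a-/- at ZT1 and ASIC1a-/- at ZT13. ZT1 lies 1 h after lights on and ZT13 lies 1 h after lights off in a 12 h light and 12 h dark cycle, so that the study compared early day with early night in both genotypes. The ASIC1a-/- mice lacked the proton-gated channel ASIC1a through a deletion present in all tissues and not restricted to the hypothalamus, and both genotypes came from heterozygous breeding. With 2 times of day the values give a difference between them and no phase.

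Potassium channels let potassium leave the cell and thereby set the resting potential, repolarize action potentials and limit firing. Voltage-gated (Kv), calcium- or sodium-activated, inwardly rectifying (Kir) and two-pore leak channels are built from different alpha subunits, which auxiliary subunits modify. In the hypothalamus, neurons of the suprachiasmatic nucleus fire more by day than by night, and their A-type, fast delayed rectifier and large-conductance calcium-activated (BK) currents are known to shape this difference. Glial Kir channels take up extracellular potassium, and Kir channels of vascular smooth muscle cells and pericytes couple metabolism to blood flow.

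The total expected count per library was 34888522 to 42326259. Asic1, the targeted gene, ranged from 97.0 to 106 CPM in the 8 WT libraries and from 64.8 to 71.8 CPM in the 8 ASIC1a-/- libraries, without overlap. This count covers the whole gene and does not single out the Asic1a transcript, which the paper reports as absent in ASIC1a-/- mice by RT-qPCR. The hypothalamic peptide genes Pmch and Hcrt ranged from 726 to 1181 CPM and from 82.0 to 159 CPM, whereas the summed level of the cortex markers was 7.89 to 15.7 CPM. Some libraries stood apart in genes of other structures. The 6 meningeal markers summed to 1674 CPM in ASIC1a-/- ZT1 replicate 4 and 1073 CPM in ASIC1a-/- ZT13 replicate 2, compared with 255 to 557 CPM in the other 14 libraries. The 4 midbrain markers summed to 227 CPM in ASIC1a-/- ZT1 replicate 2 and 212 CPM in replicate 4 of that group, compared with 12.6 to 128 CPM elsewhere. The anterior pituitary markers summed to 0.505 to 3.53 CPM in WT at ZT1 and 5.78 to 40.2 CPM in WT at ZT13, with 3 of 3 tested genes called higher, and to 0.732 to 13.9 CPM in ASIC1a-/- mice, with none called. Their part in the WT day-night results was not tested. In bulk tissue, fewer cells of a type and less RNA per cell cannot be told apart.

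The 78 genes covered a wide range of levels. On the per-length scale of TPM, Kcnj10, which encodes the glial inward rectifier Kir4.1, was highest with a mean of 220 TPM over the 16 libraries. It was followed by Kcnab2, a Kv1 beta subunit, with 143 TPM, and the sodium-activated channel gene Kcnt1 was also among the highest with 92.3 TPM. At the other end, 5 genes had means of under 1.02 TPM, namely Kcnk12, Kcnmb1, Kcnrg, Kcnj13 and Kcnk5.

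The 13 auxiliary subunit genes together made up 23.3% to 26.5% of the summed TPM of all 78 genes in a library, and the 13 inward rectifier genes 18.9% to 24.9%. The 4 Kv3 genes, whose fast delayed rectifiers permit rapid firing, contributed 9.54% to 10.9%, led by Kcnc1 with a mean of 84.6 TPM. The A-type subunit genes Kcnd2 and Kcnd3 were nearly equal in level, with means of 39.7 TPM each. The summed TPM of all 78 genes differed little between libraries and lay between 1924 and 2027. Within groups the SD of log2 CPM had a median of 0.077 over the 78 genes, compared with 0.081 over all genes tested.

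**Figure D1:**
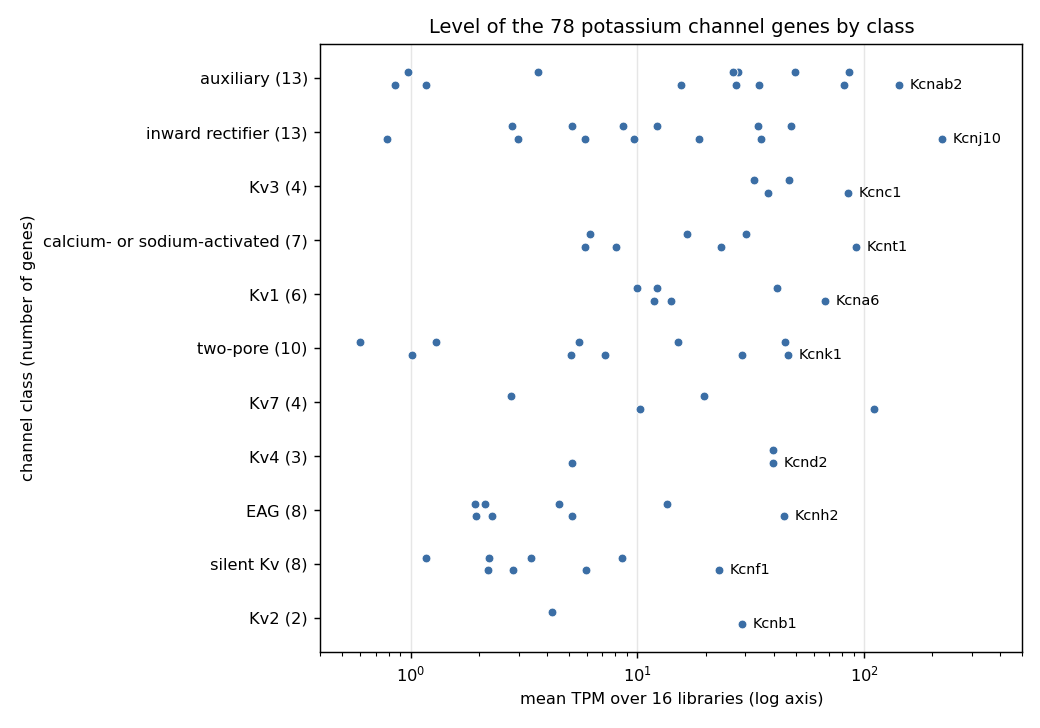
Each point is 1 potassium channel gene at its mean TPM over 16 libraries on a log axis, by channel class, with the number of genes of the class in parentheses and the highest gene of most classes named. Kcnj10 lies farthest to the right with 220 TPM and Kcnk5 farthest to the left with 0.596 TPM.

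To ask which of these genes differed between day and night, ZT13 was compared with ZT1 within each genotype by edgeR's quasi-likelihood test over all 15808 genes, with a call at a Benjamini-Hochberg adjusted p under 0.05. In WT, 12 of the 78 genes (15.4%) were called, against 13.3% of all genes tested. Of these, 7 rose at ZT13 (7.51% of all genes tested) and 5 fell (5.76%). In ASIC1a-/- mice, 13 genes (16.7%) were called, 8 higher and 5 lower, against 11.3% of all genes (6.72% higher and 4.62% lower). The share of potassium channel genes called was thus near that of all genes in both genotypes, and their median log2 fold change was -0.01 in WT and 0.01 in ASIC1a-/- mice, compared with -0.00 and -0.01 over all genes. Single libraries carried part of the WT count, which was 6 without WT ZT13 replicate 4 and 7 without WT ZT1 replicate 3. The ASIC1a-/- count was 6 without both libraries high in meningeal markers and 7 without ASIC1a-/- ZT1 replicates 2 and 4, and was 10 to 14 when any 1 library was left out. Without both meningeal-high libraries the calls of Kcnd3, Kcnf1, Kcnj16, Kcnj5, Kcnj8, Kcnk1 and Kcnk13 in ASIC1a-/- mice were lost, and without ZT1 replicates 2 and 4 those of Kcna5, Kcnd3, Kcnj16, Kcnj5, Kcnj8 and Kcnk13. Of the 4 midbrain markers, 3 fell at night in ASIC1a-/- mice and 0 in WT, and their part in the ASIC1a-/- calls was not tested. Tested by limma on log2(TPM + 1), the calls of Kcna2, Kcnf1, Kcnh8, Kcnj8, Kcnk1 and Kcnq3 in WT and of Kcnd3, Kcnh7, Kcnj16 and Kcnk13 in ASIC1a-/- mice were lost, and on log2(TPM + 0.1) that of Kcnh4 in WT as well.

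The genes called in both genotypes numbered 7, which was 58.3% of the WT calls and 53.8% of the ASIC1a-/- calls. Kcnip3, Kcnj8 and Kcnk13 fell at night and Kcnn2, Kcna5, Kcnk1 and Kcnf1 rose. Over all genes tested, 52.1% of the WT calls and 61.0% of the ASIC1a-/- calls were shared. Altogether 18 potassium channel genes were called in at least 1 genotype, and the log2 fold change of each had the same sign in both.

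Among the genes that fell, Kcnip3 had the smallest adjusted p in both genotypes. It encodes KChIP3, also known as DREAM or calsenilin, a calcium-binding protein that modifies Kv4 channels and can act as a transcriptional repressor, and it is annotated on chromosome 2 at 127456498 to 127522094 (GRCm38). At ZT1 its level was 73.3, 74.98, 76.4 and 70.6 CPM in the WT mice and 74.2, 76.2, 71.4 and 74.4 CPM in the ASIC1a-/- mice. At ZT13 it was 62.4, 58.4, 56.9 and 54.2 CPM in WT and 59.5, 58.0, 59.7 and 60.3 CPM in ASIC1a-/- mice. Every night library lay below every day library. Kcnip3 fell by 21.5% in WT (log2 fold change -0.35 ± 0.04 SE, adjusted p = 1.55e-05) and fell by 19.8% in ASIC1a-/- mice (-0.32 ± 0.04, adjusted p = 4.06e-05). The call held in both genotypes under each alternative analysis and with any 1 library left out.

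Kcnj8 encodes Kir6.1, the pore of the ATP-sensitive potassium channel of vascular mural cells. Its level was low, 3.54 to 4.19 CPM in WT and 3.64 to 5.05 CPM in ASIC1a-/- mice at ZT1, and 2.42 to 3.05 CPM and 2.51 to 3.35 CPM at ZT13. The day and night ranges did not overlap in either genotype. It fell by 29.2% in WT (log2 fold change -0.50 ± 0.13 SE, adjusted p = 0.0138) and fell by 32.2% in ASIC1a-/- mice (-0.56 ± 0.12, adjusted p = 0.00672). The WT call was lost without WT ZT13 replicate 4 (-0.44, adjusted p = 0.0509), and the ASIC1a-/- call was lost without both libraries high in meningeal markers (log2 fold change -0.42) and without ASIC1a-/- ZT1 replicates 2 and 4. Abcc9, the sulfonylurea receptor that pairs with Kir6.1, fell in WT from 10.9 ± 0.820 to 9.19 ± 0.762 CPM (SD, n = 4, log2 fold change -0.24, adjusted p = 0.0386) and averaged 9.70 and 8.93 CPM in ASIC1a-/- mice (-0.12, adjusted p = 0.334). Mural cell markers did not move as a set: of 5 genes, Pdgfrb fell and Notch3 rose in WT, and in ASIC1a-/- mice only Notch3 was called and it rose. The summed level of the 5 genes was 147 to 170 CPM by day and 133 to 144 CPM by night in WT. In ASIC1a-/- mice it was 148 to 225 CPM and 141 to 186 CPM, with overlap. The part of these markers in the Kcnj8 result was not tested.

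The promoter of Kcnj8 is shown because the gene fell in both genotypes, beside that of Kcnip3, which had the smallest adjusted p, and that of Kcnj2, described below. The sequences are the 250 bases before the start site as given by RefSeq on GRCm38.p6, written 5′ to 3′ on the strand of the gene. Capitals mark the E-box CACGTG, to which clock factors of the basic helix-loop-helix family can bind, or the short site of the cAMP response element, TGACG, either motif on either strand. The Kcnip3 window, which is the outermost of 3 start sites, holds neither motif.
Kcnj8, chr6:142571615-142571864, minus strand: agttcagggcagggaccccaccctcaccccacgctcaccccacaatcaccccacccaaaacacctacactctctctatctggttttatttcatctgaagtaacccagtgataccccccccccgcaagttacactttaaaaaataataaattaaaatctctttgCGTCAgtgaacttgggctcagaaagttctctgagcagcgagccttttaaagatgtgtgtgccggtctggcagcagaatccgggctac
Kcnip3, chr2:127522095-127522344, minus strand: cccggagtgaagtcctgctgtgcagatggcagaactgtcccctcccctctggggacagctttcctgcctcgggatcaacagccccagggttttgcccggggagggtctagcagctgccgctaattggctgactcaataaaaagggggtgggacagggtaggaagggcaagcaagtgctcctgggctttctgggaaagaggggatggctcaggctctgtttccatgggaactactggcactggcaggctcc
Kcnj2, chr11:111065914-111066163, plus strand: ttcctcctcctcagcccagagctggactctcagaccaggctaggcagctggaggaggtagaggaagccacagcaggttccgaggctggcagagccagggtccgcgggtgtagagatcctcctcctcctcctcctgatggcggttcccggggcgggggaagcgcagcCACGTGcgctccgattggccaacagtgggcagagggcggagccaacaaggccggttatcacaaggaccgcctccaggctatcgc

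A RefSeq promoter was found for 56 of the 78 genes and for 14 of the 18 genes with a day-night call. Of those 14, Kcnj2 and Kcnh4 hold the E-box, which begins 84 and 87 bases before the start site, and Kcnj8 alone holds the short site, 87 bases before it. Counted over windows of the same length, the E-box stood in 6.33% of 79 promoters of potassium channel genes and in 7.91% of the promoters of all genes tested. TGACG stood in 15.2% and 25% of them, respectively. These are matches of letters in a short window and were not tested as binding sites.

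Kcnk13, which encodes the two-pore channel THIK-1 known from microglia, was the third gene to fall in both genotypes. At ZT1 it had 11.9, 11.8, 12.6 and 12.8 CPM in WT and 11.5, 13.6, 10.8 and 11.6 CPM in ASIC1a-/- mice, and at ZT13 9.22, 10.3, 10.96 and 8.19 CPM in WT and 9.88, 10.1, 9.41 and 10.3 CPM in ASIC1a-/- mice. Day and night values did not overlap within a genotype. The log2 fold change was -0.34 ± 0.08 (SE, adjusted p = 0.0109) in WT and -0.26 ± 0.08 (adjusted p = 0.0487) in ASIC1a-/- mice. The WT call held with any 1 library left out, whereas the ASIC1a-/- call was lost in 13 of 16 such fits, with an adjusted p of up to 0.163 without ASIC1a-/- ZT1 replicate 2. The summed level of 6 microglial markers was also lower at ZT13, 231 to 238 CPM against 244 to 256 CPM at ZT1 in WT and 239 to 251 CPM against 254 to 271 CPM in ASIC1a-/- mice, and 1 of the 6 genes, Cx3cr1, fell in each genotype. Their part in the Kcnk13 result was not tested.

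Some genes fell in 1 genotype only by the call, which does not show that the genotypes differ. Kcnj11, the Kir6.2 pore of the ATP-sensitive channel of neurons, had 28.0 to 30.4 CPM at ZT1 and 25.2 to 26.5 CPM at ZT13 in WT, without overlap (log2 fold change -0.17, adjusted p = 0.0167, lost without WT ZT1 replicate 4 with adjusted p = 0.0602), and its log2 fold change was -0.08 in ASIC1a-/- mice (adjusted p = 0.249). Kcna2, a Kv1 channel of axons, fell by 6.02% in WT from 250 to 257 CPM to 235 to 240 CPM (log2 fold change -0.09, adjusted p = 0.0261, lost in 4 of 16 fits without 1 library, with an adjusted p of up to 0.0647), compared with -0.02 in ASIC1a-/- mice (adjusted p = 0.666). Thalamic markers moved in the same direction in WT: their summed level was 562 to 639 CPM at ZT1 and 527 to 543 CPM at ZT13, with 2 of 10 genes called lower and none higher. Their part in these results was not tested.

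In ASIC1a-/- mice, Kcnj16, which encodes the Kir5.1 partner of Kir4.1 in glia, had 63.6, 70.4, 68.4 and 69.2 CPM at ZT1 and 60.6, 59.5, 60.2 and 63.9 CPM at ZT13, with an overlap between replicate 1 by day and replicate 4 by night. It fell by 10.1% (log2 fold change -0.15, adjusted p = 0.0137), and the call was lost without either pair of ASIC1a-/- libraries that stood apart. In WT it had 63.1 to 68.6 CPM and 59.3 to 63.8 CPM, and the log2 fold change of -0.11 missed the threshold (adjusted p = 0.0555). Beside it, 1 of 6 astrocyte markers, Gja1, fell in each genotype (log2 fold change -0.14 in WT and -0.18 in ASIC1a-/- mice), as did 1 of 6 oligodendrocyte markers, Cnp (-0.19 and -0.20). The summed astrocyte markers were 2498 to 2618 CPM by day and 2439 to 2550 CPM by night in ASIC1a-/- mice, and their part in the Kcnj16 result was not tested. Kcnd3, a Kv4 subunit of A-type currents, fell by 8.59% in ASIC1a-/- mice from 128 to 141 CPM to 119 to 128 CPM, ranges that just did not overlap (log2 fold change -0.13, adjusted p = 0.0250), with 4 of 16 fits without 1 library losing the call (adjusted p up to 0.0771). In WT its log2 fold change was -0.01 (adjusted p = 0.875).

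Kcnn2 rose most clearly among the genes that were higher at night. It encodes SK2, a small-conductance calcium-activated channel of the afterhyperpolarization that follows spikes. Its level at ZT1 was 17.3, 17.9, 19.4 and 19.6 CPM in WT and 18.1, 19.1, 18.3 and 17.0 CPM in ASIC1a-/- mice. At ZT13 it was 26.0, 23.6, 24.2 and 25.4 CPM in WT and 23.7, 25.1, 24.1 and 22.4 CPM in ASIC1a-/- mice. All night values exceeded all day values. Kcnn2 rose by 33.6% in WT (log2 fold change 0.42 ± 0.05 SE, adjusted p = 4.06e-05) and by 31.7% in ASIC1a-/- mice (0.40 ± 0.05, adjusted p = 6.97e-05). The call held in both genotypes under each alternative analysis. The other genes of small-conductance channels, Kcnn1 and Kcnn3, were not called at any comparison.

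Kcna5 encodes Kv1.5, a delayed rectifier of neurons, glia and vascular cells. It had 16.4, 14.8, 15.3 and 15.1 CPM at ZT1 and 19.8, 20.0, 17.8 and 19.4 CPM at ZT13 in WT, and 15.1, 14.3, 16.5 and 16.2 CPM at ZT1 and 17.4, 18.2, 17.1 and 20.2 CPM at ZT13 in ASIC1a-/- mice. The night values lay above the day values in both genotypes. The increase was 25.0% in WT (log2 fold change 0.32 ± 0.06 SE, adjusted p = 0.00186) and 17.3% in ASIC1a-/- mice (0.23 ± 0.06, adjusted p = 0.0175). The ASIC1a-/- call was lost without ASIC1a-/- ZT1 replicate 2 (0.20, adjusted p = 0.0596) and without ASIC1a-/- ZT13 replicate 4 (0.18, adjusted p = 0.0543). Kcna1, its neighbour 104985 bases away on chromosome 6 and the main Kv1.1 subunit of axons, was called in ASIC1a-/- mice with 24.7 to 27.6 CPM at ZT1 and 28.8 to 31.5 CPM at ZT13 (log2 fold change 0.20, adjusted p = 0.0138). In WT its day and night ranges overlapped (26.6 to 30.2 CPM and 26.9 to 31.1 CPM, log2 fold change 0.07, adjusted p = 0.402). Kcna6, which lies 61945 bases beyond Kcna1 on the same strand, was not called in either genotype.

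Kcnk1, which encodes the two-pore subunit TWIK-1, and Kcnf1, a silent subunit that joins Kv2 channels, rose by 8.55% to 13.0%. Kcnk1 had 44.0 to 47.0 CPM at ZT1 and 48.5 to 52.6 CPM at ZT13 in WT (log2 fold change 0.14, adjusted p = 0.0311), and 43.5 to 47.3 CPM and 48.5 to 54.4 CPM in ASIC1a-/- mice (0.18, adjusted p = 0.00929). Kcnf1 had 52.1 to 53.1 CPM and 54.8 to 58.8 CPM in WT (0.12, adjusted p = 0.0376), and 50.1 to 55.7 CPM and 56.0 to 60.7 CPM in ASIC1a-/- mice (0.14, adjusted p = 0.0155). Neither gene's day and night ranges overlapped. The WT calls were the less stable: with 1 library left out, that of Kcnk1 was lost in 4 of 16 fits and that of Kcnf1 in 9 of 16, with adjusted p values of up to 0.0958 and 0.103, both without WT ZT13 replicate 2. The ASIC1a-/- call of Kcnf1 was lost without ASIC1a-/- ZT1 replicate 1 (0.12, adjusted p = 0.0514).

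**Figure D2:**
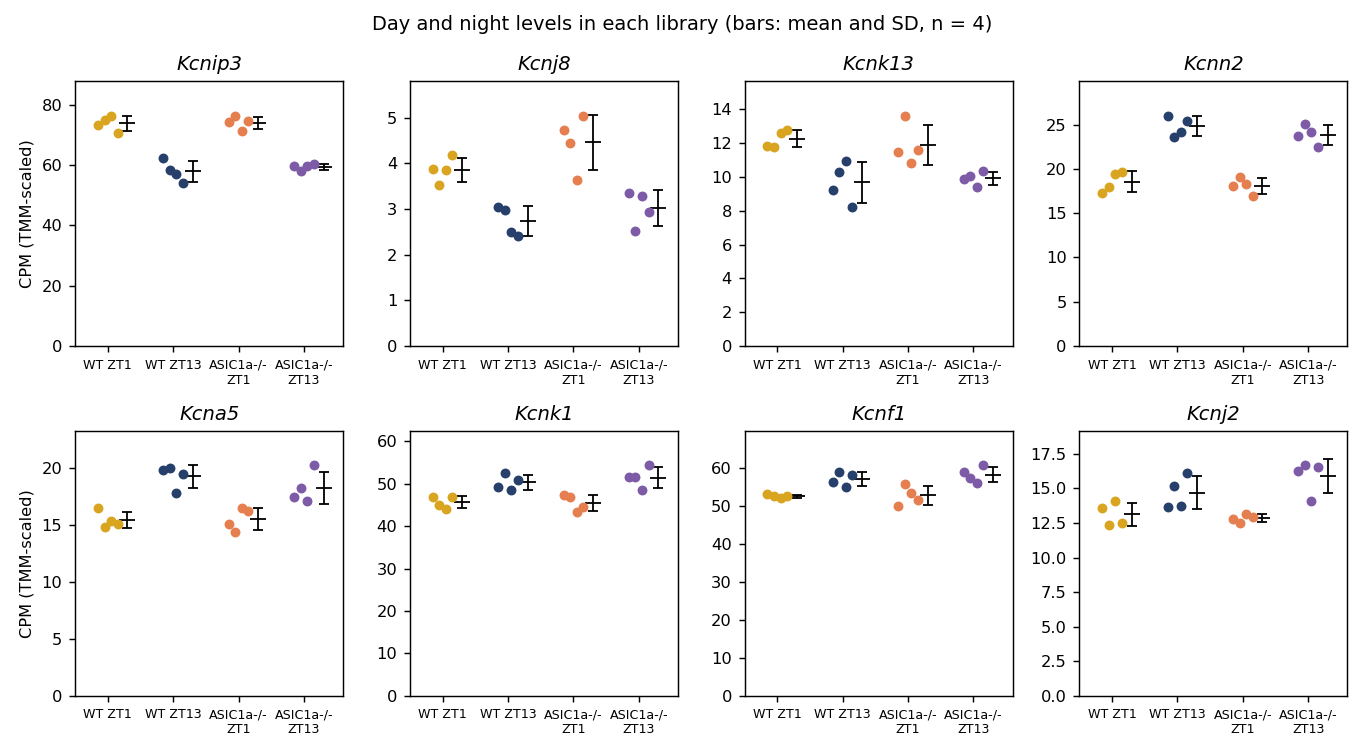
TMM-scaled CPM of 8 genes in each of the 16 libraries, by genotype and time, with 1 point a library and bars for the mean and SD of 4 libraries. Kcnip3, Kcnj8 and Kcnk13 lie lower and Kcnn2, Kcna5, Kcnk1 and Kcnf1 lie higher at ZT13 in both genotypes, and Kcnj2 was called in ASIC1a-/- mice.

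Kcnj2 encodes Kir2.1, a strong inward rectifier that stabilizes the resting potential, and lies 38196 bases downstream of Kcnj16 on chromosome 11. It had 12.8, 12.5, 13.2 and 12.9 CPM at ZT1 and 16.2, 16.7, 14.1 and 16.5 CPM at ZT13 in ASIC1a-/- mice. The night values were all above the day values, and 3 of the 4 lay close together. The increase of 23.4% (log2 fold change 0.30 ± 0.07 SE, adjusted p = 0.00603) was in the opposite direction to that of its neighbour Kcnj16, and its call held in every alternative analysis. In WT the level was 12.4 to 14.1 CPM at ZT1 and 13.7 to 16.1 CPM at ZT13, and the log2 fold change of 0.16 was not called (adjusted p = 0.120). The test of the difference between the genotypes gave 0.14 on the log2 scale (95% confidence interval -0.05 to 0.34).

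The other genes called in ASIC1a-/- mice alone were Kcnh7 and Kcnj5. Kcnh7, an Erg channel gene, had 29.2 to 32.2 CPM at ZT1 and 31.8 to 36.5 CPM at ZT13 (log2 fold change 0.19, adjusted p = 0.00906, lost on the log2(TPM + 1) and log2(TPM + 0.1) scales with 0.0760 and 0.0778), and in WT 31.6 to 33.4 CPM and 33.1 to 36.0 CPM (0.09, adjusted p = 0.188). Kcnj5, whose product GIRK4 forms G protein-gated channels, had 15.5 to 16.9 CPM and 17.99 to 18.4 CPM (0.19, adjusted p = 0.0311, lost in 7 of 16 fits without 1 library with an adjusted p of up to 0.0756), and in WT 14.3 to 17.3 CPM and 16.6 to 18.5 CPM (0.13, adjusted p = 0.144). Both genes thus had positive values in both genotypes, and only in ASIC1a-/- mice were they called.

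A further 3 genes rose in WT and were not called in ASIC1a-/- mice, where their log2 fold changes were also above 0. Kcnh4 and Kcnh8, which encode Elk channels of the Eag class, were low, with 3.22 to 3.68 CPM and 2.76 to 3.99 CPM at ZT1 and 4.23 to 4.75 CPM and 4.02 to 5.14 CPM at ZT13. Neither pair of ranges overlapped. The log2 fold change was 0.40 for Kcnh4 (adjusted p = 0.0147) and 0.43 for Kcnh8 (adjusted p = 0.0402, lost in 7 of 16 fits without 1 library, with up to 0.132 without WT ZT13 replicate 4), compared with 0.11 and 0.30 in ASIC1a-/- mice (adjusted p = 0.521 and 0.162, 95% confidence intervals -0.10 to 0.32 and 0.02 to 0.58). Kcnq3, a subunit of the M current that restrains repetitive firing, rose by 7.13% from 114 to 119 CPM to 119 to 129 CPM, ranges that just overlapped. The log2 fold change of Kcnq3 was 0.10 (adjusted p = 0.0299). The call was lost in 6 of 16 fits without 1 library, with an adjusted p of up to 0.109 without WT ZT13 replicate 1. In ASIC1a-/- mice its log2 fold change was 0.04 (adjusted p = 0.363).

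The alpha subunits of the currents that shape daily firing in suprachiasmatic neurons were, apart from Kcnd3 in ASIC1a-/- mice and Kcnk1, not called between day and night in either genotype. These were Kcnma1 of the BK channel, Kcnc1 and Kcnc2 of the fast delayed rectifier, Kcnd1, Kcnd2 and Kcna4 of the A-type current, and Kcnk2. The libraries hold RNA of the whole hypothalamus, of which the suprachiasmatic nucleus is a part. Levels within that nucleus were not measured, so that a missing call does not speak to them. Kcnma1 averaged 177 ± 3.50 CPM at ZT1 and 171 ± 8.46 CPM at ZT13 in WT (SD, n = 4) and 165 ± 3.54 and 172 ± 6.27 CPM in ASIC1a-/- mice. Kcnc1 averaged 183 ± 2.49 and 178 ± 4.23 CPM in WT and 176 ± 5.004 and 178 ± 5.38 CPM in ASIC1a-/- mice. The day and night ranges of both genes overlapped in each genotype. Kcnc2 averaged 82.8 ± 6.83 and 73.8 ± 4.95 CPM in WT, with overlapping ranges (log2 fold change -0.17, 95% confidence interval -18.3% to -2.79%, adjusted p = 0.0746), and 79.2 ± 3.58 and 79.01 ± 5.36 CPM in ASIC1a-/- mice. All 4 Kv3 genes had log2 fold changes below 0 in WT, 2 of them at an unadjusted p under 0.05, and 0 were called. Over all genes tested, 27.1% had an unadjusted p under 0.05 in WT. In ASIC1a-/- mice 2 of the 4 Kv3 genes had log2 fold changes above 0, and 0 had an unadjusted p under 0.05.

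**Figure D3:**
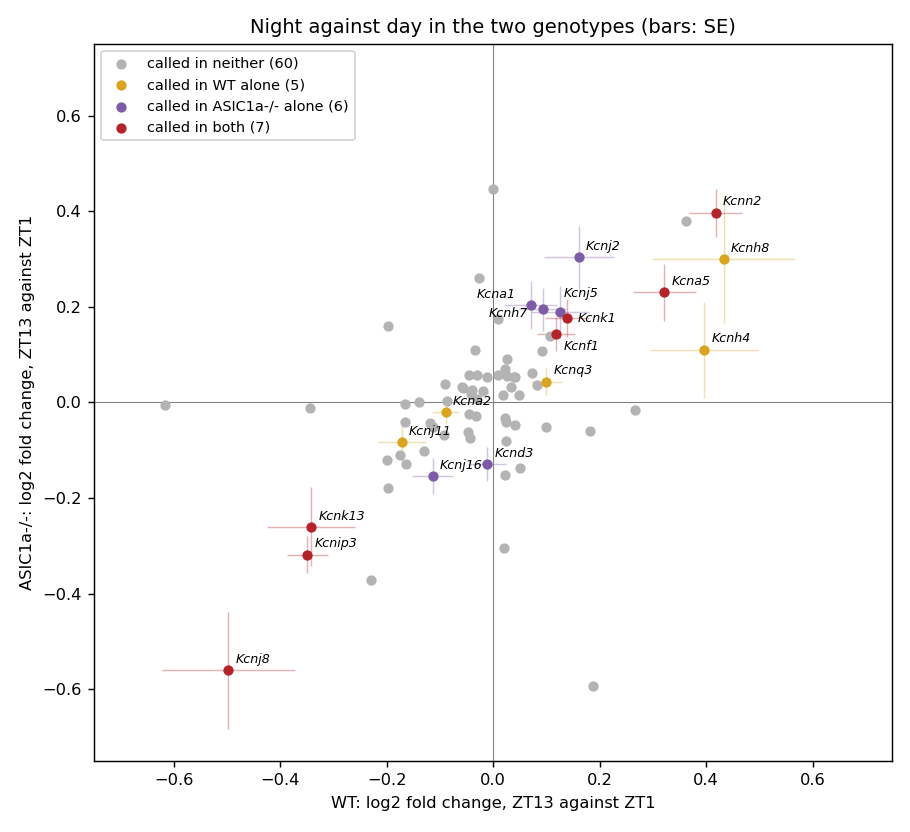
Log2 fold change of ZT13 against ZT1 in WT on the horizontal axis and in ASIC1a-/- mice on the vertical axis, 1 point for each potassium channel gene, with SE bars for the 18 genes called in either genotype. All 18 lie at the lower left or upper right, and Kcnj13 (-1.42 in ASIC1a-/- mice) lies outside the axes.

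The comparison of ASIC1a-/- with WT mice addressed whether the deletion changed channel expression at either time. No potassium channel gene was called at ZT1 by edgeR, against 0.0127% of all genes tested, and 12 of the 78 (15.4%) had an unadjusted p under 0.05, compared with 7.00% of all genes. These 12 include Kcnj13 and Kcnk5, which passed the filter only through 2 ASIC1a-/- libraries, and Kcnj10 and Kcnj9, in which 2 ASIC1a-/- libraries stood apart (all described below). At ZT13 again 0 were called, against 0.101% of all genes (0.0822% higher and 0.019% lower), and 4 (5.13%) had an unadjusted p under 0.05, compared with 3.74% of all genes. The smallest adjusted p was 0.680 at ZT1 and 0.9997 at ZT13. DESeq2 also called none, with 10 and 3 genes at an unadjusted p under 0.05. The 95% confidence interval of the genotype difference lay within 0.5 log2 units of 0 for 67 of the 78 genes at ZT1 and for 72 at ZT13. The interaction of genotype and time was not called for any gene (0.019% of all genes were called), with 5 genes (6.41%, compared with 3.91% of all genes) at an unadjusted p under 0.05 by edgeR and 4 by DESeq2.

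Kcnk3 and Kcnk9 encode leak channels that extracellular protons close, whereas protons open the deleted channel. Kcnk5, of the TASK-2 channel, is given further below. Kcnk3 (TASK-1) had 28.9, 25.2, 26.7 and 28.0 CPM in WT and 31.2, 27.8, 28.7 and 28.9 CPM in ASIC1a-/- mice at ZT1, with overlapping ranges, and the 95% confidence interval of the change ran from -0.45% to 15.6%. At ZT13 it ran from -2.55% to 13.0%. Kcnk9 (TASK-3) averaged 183 ± 7.23 and 176 ± 3.25 CPM at ZT1 and 188 ± 7.41 and 183 ± 5.22 CPM at ZT13, with intervals of -8.09% to 0.954% and -7.13% to 1.98%. Of the G protein-gated channel genes Kcnj3 and Kcnj6, neither was called at either time.

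Kcnma1, Kcnq5 and Kcna2 were lower in all 4 ASIC1a-/- libraries than in all 4 WT libraries at ZT1, but none passed the test (adjusted p = 0.680 each). Kcnma1 had 172 to 180 CPM in WT and 160 to 168 CPM in ASIC1a-/- mice (log2 fold change -0.09). Kcnq5, an M current subunit, had 34.0 to 36.1 CPM and 31.4 to 33.5 CPM (-0.10), and Kcna2 had 250 to 257 CPM and 239 to 247 CPM (-0.07). At ZT13 their log2 fold changes were 0.01, -0.01 and -0.00. The low gene Kcnk5 lay apart at ZT1 as well. It was higher, with 0.342 to 0.618 CPM in WT and 0.671 to 2.54 CPM in ASIC1a-/- mice. Kcnk5 passed the filter only through 2 ASIC1a-/- libraries, a selection that favours a higher level in that group. How many of all genes tested lay apart in this way at ZT1 was not counted, so that these gaps give no result about the potassium channel genes. The smallest interaction p was that of Kcnh1, an Eag channel gene, which had 44.8 to 50.8 CPM at ZT1 and 46.2 to 52.5 CPM at ZT13 in WT and 48.5 to 50.9 CPM and 44.6 to 47.1 CPM in ASIC1a-/- mice (-0.19 on the log2 scale, 95% confidence interval -0.32 to -0.06, adjusted p = 0.9997).

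For the 7 genes called in both genotypes, the difference between the day-night changes of the genotypes was within the error. On the log2 scale its 95% confidence interval was -0.08 to 0.14 for Kcnip3, -0.17 to 0.13 for Kcnn2 and -0.27 to 0.09 for Kcna5. For the low gene Kcnj8 it was wider, with a change from -25.9% to 23.6%, so that differences of that size were not detectable with 4 mice a group.

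Kcnj10 was set apart by 2 libraries. It had 539, 561, 577 and 557 CPM in WT at ZT1, 580, 555, 548 and 583 CPM in WT at ZT13 and 553, 569, 583 and 587 CPM in ASIC1a-/- mice at ZT13. In ASIC1a-/- mice at ZT1 it had 566, 864, 554 and 848 CPM, so that replicates 2 and 4 exceeded each of the other 14 libraries, which spanned 539 to 587 CPM. The group mean of 708 ± 171 CPM (SD, n = 4) compared with 559 ± 15.5 CPM in WT (log2 fold change 0.34 ± 0.11 SE, adjusted p = 0.680). Without replicates 2 and 4 the log2 fold change was 0.0015 (adjusted p = 0.9996).

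Kcnj9, which encodes the G protein-gated subunit GIRK3 and lies on the opposite strand, 11892 bases from Kcnj10, showed the same libraries apart, with 113 and 108 CPM in replicates 2 and 4 against 82.0 to 90.5 CPM in the other 14. Genes around the pair were therefore examined, a choice made after these values were seen. Of 10 tested genes that start within 200000 bases of Kcnj10, both libraries exceeded all other 14 in 4 genes, namely Igsf8, Kcnj9, Kcnj10 and Pigm. Relative to the median of the 16 libraries, Kcnj10 stood at 1.52 and 1.49 in replicates 2 and 4, Igsf8 at 1.49 and 1.36, Pigm at 1.46 and 1.45 and Kcnj9 at 1.32 and 1.25.

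The flanking genes did not stand apart in both libraries. Pea15a, the next tested gene on one side, was at 1.08 and 1.00 against 0.943 to 1.06 in the other libraries, and Igsf9, the next on the other side, was at 0.890 and 0.913 against 0.848 to 1.16. The astrocyte markers summed to 2615 and 2606 CPM in replicates 2 and 4, compared with 2413 to 2691 CPM over all libraries. Both libraries had the highest midbrain marker levels, as given above, and replicate 2 had the highest oligodendrocyte marker level (6472 CPM, compared with 4778 to 5630 CPM in the others). The part of these markers was not tested. RNA counts do not show how many copies of these genes a mouse carries, so that a higher count per gene copy and more gene copies cannot be told apart here.

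**Figure D4:**
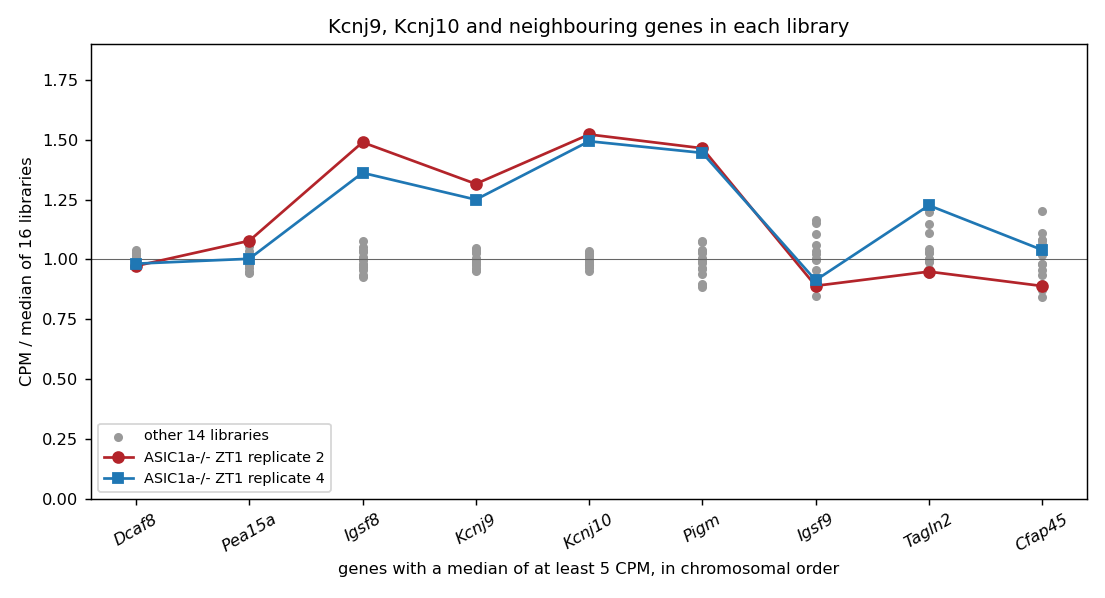
CPM of each gene divided by its median over the 16 libraries (vertical axis), for tested genes around Kcnj10 with a median of at least 5 CPM in chromosomal order (horizontal axis), with lines for ASIC1a-/- ZT1 replicates 2 and 4 and grey points for the other 14 libraries. At Igsf8, Kcnj9, Kcnj10 and Pigm the 2 libraries lie at 1.25 to 1.52, above all grey points, and they return to the range near 1 at Pea15a and Igsf9.

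Kcnj13 and Kcnk5, 2 of the lowest genes, passed the filter only through ASIC1a-/- ZT1 replicate 4 and ASIC1a-/- ZT13 replicate 2, the libraries high in meningeal markers. Kcnj13, which encodes Kir7.1 of epithelia such as the choroid plexus, had 3.49 and 1.38 CPM there and 0 to 0.584 CPM in the other 14 libraries. Kcnk5, which encodes the two-pore channel TASK-2, had 2.54 and 1.35 CPM there and 0.278 to 0.993 CPM elsewhere. The log2 fold change of ASIC1a-/- against WT at ZT1 was 2.96 for Kcnj13 and 1.195 for Kcnk5 (adjusted p = 0.680 for both), and 0.89 and 0.56 without these libraries. The choroid plexus markers summed to 35.9 and 36.1 CPM in these 2 libraries and to 25.0 to 34.3 CPM in the other 14. The part of meningeal tissue in these values was not tested.

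**Figure D5:**
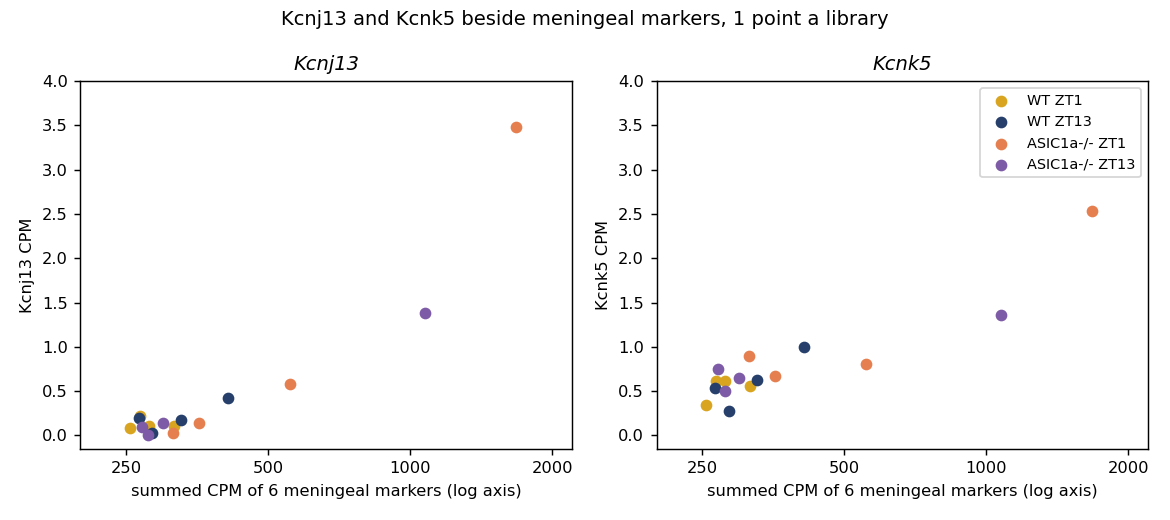
CPM of Kcnj13 (left) and Kcnk5 (right) in each library against the summed CPM of 6 meningeal markers on a log axis, coloured by group. The ASIC1a-/- ZT1 library with 1674 CPM of meningeal markers has the highest Kcnj13 and Kcnk5 levels, 3.49 and 2.54 CPM, and the ASIC1a-/- ZT13 library with 1073 CPM the next.

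A list of 26 genes, of which 24 were tested, held mainly genes of proteins that join or anchor these channels. It also held Tmem175, Tmem38a and Tmem38b, which are not such partners. Of the genes tested, 3 fell at night in WT and 2 in ASIC1a-/- mice, and none rose, where 5.76% and 4.62% of all genes were called lower. Tmem175, a lysosomal potassium channel gene outside the Kcn nomenclature, fell from 36.1 ± 0.779 to 31.5 ± 0.652 CPM in WT (SD, n = 4, log2 fold change -0.19, adjusted p = 0.000717) and from 34.9 ± 0.564 to 31.04 ± 1.09 CPM in ASIC1a-/- mice (-0.17, adjusted p = 0.00246). Dlg1, a scaffold of Kv1 and Kir channels, had log2 fold changes of -0.11 and -0.10 (adjusted p = 0.0223 and 0.0445), and Abcc9 is given above. Of 11 genes of pumps and cotransporters that move potassium, 1 was called: Slc12a5, the neuronal potassium-chloride cotransporter KCC2, fell in WT (-0.09, adjusted p = 0.0104). None of either list was called between genotypes at ZT1 or ZT13.

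The abundance-weighted transcript length that RSEM gives each gene, which changes when the mix of isoforms changes, could be tested for 62 of the 78 genes by limma. None was called in any of the 5 comparisons, with 2 to 5 genes at an unadjusted p under 0.05 in each, and over the 13293 genes tested 0% were called between day and night or for the interaction and 0.015% between genotypes at each time. Between day and night, length differences on the log2 scale ranged from -0.30 to 0.43 in WT and from -0.18 to 0.45 in ASIC1a-/- mice. The WT extremes were those of the low genes Kcnh3 and Kcnk5. The differences between the genotypes' day-night changes ranged from -0.44 to 0.45.

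Some of these genes overlap others on the opposite strand, and the sources used here do not state that strand was used in counting, so that their reads cannot be told apart. Kcnmb1, a BK beta subunit gene with a mean of 2.03 CPM, overlaps Kcnip1 (73.5 CPM), Kcnj13 (0.450 CPM) lies within Gigyf2 (69.5 CPM), Kcnh3 (3.13 CPM) overlaps Mcrs1 (32.6 CPM), and Kcnh7 (33.3 CPM) overlaps Gca (11.9 CPM). The levels of these genes are uncertain to that extent.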

How the data were processed

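Hypothalamus RNA was sequenced from 16 mice, 4 in each of the 4 groups. The expected counts were estimated by the authors with RSEM per gene and not normalized. TPM, which are per length and scaled to the library, and transcript lengths were deposited beside them and used as given. The submitters' notes name cutadapt 1.8, STAR 2.5.3a, HTSeq 0.9.1 and RSEM 1.2.31, with GRCm38 and mm9 as builds. Labels and methods name different extraction and library kits. GENCODE M21 (GRCm38) gave symbols and positions for 55141 of 55401 identifiers.

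After rounding, the expected counts entered edgeR 4.0.16 under R 4.3.3 (TMM scaling, quasi-likelihood F test, 1 mean for each group over all 16 libraries) for 15808 genes above 1 CPM in at least 1 library. P-values were adjusted by Benjamini-Hochberg over all of them and called under 0.05. CPM are TMM-scaled, and SE derive from the F statistic. Transcript length was tested on the log2 scale with limma 3.58.1. DESeq2 1.42.0 and limma on log2(TPM + 1) and log2(TPM + 0.1), other filters and scalings, a replicate block and omission of each library were alternatives. Omission of the libraries high in meningeal markers, and of those high in Kcnj10, was added after the data were seen. Biological coefficient of variation was 6.06%, and with totals of 34888522 to 42326259 the precision is set mainly by 4 mice a group. On simulated counts for ZT13 against ZT1 in WT (15808 genes), the test found 66% of the 50 genes given a log2 change of 0.25 and 96% of the 50 given 0.5. On simulated lengths (13293 genes), 89% of 200 genes changed by 0.5 were found. The genes changed in the simulated counts were drawn only from those of higher mean level. The shares found therefore do not extend to low genes such as Kcnj8, Kcnh4 and Kcnh8. Fewer genes were changed there than were called in the data, which also alters the adjusted threshold.

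The genes described, the partner, transport and marker lists and the motifs were chosen with earlier results of these data known. Genes are named if called in any comparison, among the 4 smallest p in a comparison, highest of their class by TPM, among the 5 with the largest spread within groups, or known for daily firing, acid sensing, glial, mural or epithelial expression or gating by ATP or G proteins. Replicate numbers did not pair the libraries. Protein sequences were not used here. Results for some single genes are not reported here.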

Additional observations from a re-analysis of the deposited data

Results flagged for a closer look

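In 45 of the 46 genes named by rule, the 4 groups gave 180 sets of 4 libraries, and in 9 of them (5%) 1 library lay far from the other 3, by Dixon's criterion for a gap to the nearest library. Chance flags about 1 in 20 such groups.

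High libraries were Kcna1 in WT ZT1 replicate 1 (30.2 CPM, others 26.6 to 27.0), Kcna6 in ASIC1a-/- ZT13 replicate 4 (167.8 CPM, others 158 to 159) and Kcnh2 in WT ZT1 replicate 4 (74.4 CPM, others 68.6 to 69.2). Low libraries were Kcnh7 in ASIC1a-/- ZT13 replicate 1 (31.8 CPM, others 35.8 to 36.5), Kcnj2 in ASIC1a-/- ZT13 replicate 3 (14.1 CPM, others 16.2 to 16.7) and Kcnq5 in WT ZT13 replicate 4 (33.1 CPM, others 34.6 to 34.7). Kcnj13 was high in ASIC1a-/- ZT1 replicate 4 (3.49 CPM, others 0.0279 to 0.584) and in ASIC1a-/- ZT13 replicate 2 (1.38 CPM, others 0 to 0.136), and Kcnk5 was high in ASIC1a-/- ZT1 replicate 4 (2.54 CPM, others 0.671 to 0.894), the libraries high in meningeal markers. Kcnj10, with 2 of 4 libraries high at ZT1 in ASIC1a-/- mice, does not meet this criterion.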

How the results depend on the processing

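None of the 25 day-night calls of single genes changed sign in any of the alternatives run. DESeq2 and DESeq2's size factors within edgeR kept all 25, whereas limma on log2(TPM + 1) and log2(TPM + 0.1) kept 15 and 14. The edgeR test kept 19 without the low-count filter and 20 when fitted to only the 8 libraries compared. The number of genes called in WT (12) was 7 on log2(TPM + 0.1) and 6 to 13 with 1 library left out, and the number in ASIC1a-/- mice (13) was 10 to 14 with 1 library left out. In analyses added after the data were seen, the ASIC1a-/- number was 6 without both libraries high in meningeal markers and 7 without both libraries high in Kcnj10, and the causes were not tested. The 0 calls between genotypes, for the interaction and for transcript length were 0 in each alternative. Same-numbered libraries deviated together no more than others (correlations -0.32 to 0.22, and 5 of 16 libraries correlated best with their own number), and with the replicate block 11 genes were called in WT and 12 in ASIC1a-/- mice, with Kcnh8 in WT and Kcnk13 in ASIC1a-/- mice not called. Genes near 1 CPM, such as Kcnj13, Kcnk5 and Kcnrg, had wide intervals at these depths.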
